A study of Mus musculus with 2 samples.

Results

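Glucose is broken down to pyruvate and lactate by glycolysis, and many genes of this chain are also targets of the hypoxia-inducible factors (HIFs), the transcription factors that respond to low oxygen. This account follows 33 genes by name: 15 that encode the transport steps and enzymes of glycolysis, called glycolytic genes here, and 18 known responders to hypoxia outside that chain, called hypoxia genes. They were given as a list of names and found by symbol among the 31053 genes of a table of UMI counts, where all 33 were present. A unique molecular identifier (UMI) is a short random tag on each captured RNA, so that PCR copies are counted once.

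Small intestinal organoids, which are epithelial cultures that form crypt-like buds in a gel, were grown from crypts of adult C57BL/6J mice. They were first kept for 3 days in medium with EGF, Noggin and R-spondin 1 (and the ROCK inhibitor Y-27632 at the start), then 24 h without added EGF, and then 24 h with EGF, EREG or NRG1 at 100 ng/ml. All groups carried the same basal medium with Noggin and R-spondin 1, there was no group without a ligand, and EGF served as the reference. Each of 2 experiments used 1 mouse and gave 3 libraries for every ligand, so 6 per ligand and 18 in all. Nothing in the sources says that the 3 came from different cultures. The p-values therefore describe how far libraries spread, which may be technical, and not how far mice do. The libraries are of whole cultures, in which fewer cells of a type and less RNA per cell cannot be told apart.

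Library totals ranged from 1311420 to 1891243 UMIs, and no library was left out. Of 12 markers of fibroblasts, endothelium and immune cells, 4 had no UMI in any library (Kdr, Cdh5, Cd3e and Adgre1) and 4 more fell under the filter on low counts, and the 12 together held at most 0.00296% of the UMIs of a library, while the 10 Paneth cell markers held at least 2.54%. Values below are normalized counts, which are UMI counts scaled to the mean effective library size by TMM. As the method reads 3′ ends, a count does not grow with gene length. A gene passed a test at an adjusted p under 0.1 over 12159 genes, and differences are log2 fold changes ± SE. All 33 genes passed the filter on low counts, from Pgam1 with a mean of 7.09 normalized counts to Ldha with 8876.

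Under normal oxygen, prolyl hydroxylases (EGLN proteins) mark the HIF alpha subunits for removal through the VHL ligase, and at low oxygen the subunits persist, pair with ARNT and bind DNA at a short core, ACGTG or GCGTG. Growth factor signals through PI3K and mTOR can raise HIF and glycolytic genes with oxygen unchanged. EGF binds EGFR, EREG binds EGFR and ERBB4, and NRG1 binds ERBB3 and ERBB4, which pair with ERBB2. In crypts, Paneth cells are known for strong glycolysis and give lactate to the neighbouring stem cells, and HIF in the gut epithelium is known for a role in upkeep of the barrier.

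The promoter stretches that hold the core ACGTG are shown for 8 of the genes described below that have it, since ACGTG is a core at which HIF binds. Promoter windows of 300 bases (250 before to 50 after a start) came from RefSeq on GRCm38.p6 and were found for 32 of the 33 genes, all but Ndrg1. The starts in these lines are those of RefSeq. They can differ from the gene coordinates printed further below, which came from GENCODE. For Ankrd37 (chr8:45996902-46005707 in GENCODE) and Ldha (chr7:46841475-46855627), the RefSeq start used here lies inside the GENCODE gene. Each line gives 29 bases, 5′ to 3′ on the strand of the gene, with the core in capitals, written CACGT where it lies on the other strand.
Slc2a1 (chr4:119108697-119108725, plus strand, 36 bases before the start): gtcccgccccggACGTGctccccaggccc
Pgk1 (chrX:106186938-106186966, plus strand, 150 bases before the start): gcgtcgtgcaggACGTGacaaatggaagt
Ldha (chr7:46845745-46845773, plus strand, 47 bases before the start): ggcccagcctacACGTGggttcccgcacg
Slc16a3 (chr11:120949028-120949056, plus strand, 27 bases before the start): caggcagcggtgACGTGcgcgggggacgt
Fam162a (chr16:36071626-36071654, minus strand, 81 bases before the start): ccgctcgtcgcgCACGTcccgcacgcccg
Bnip3 (chr7:138909597-138909625, minus strand, 107 bases before the start): cgcacgcgccgcACGTGccacacgctccc
Egln3 (chr12:54204087-54204115, minus strand, 229 bases before the start): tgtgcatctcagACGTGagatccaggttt
Ankrd37 (chr8:45999840-45999868, minus strand, 6 bases before the start): cagtgtttgggtACGTGaggccgcagcgg

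ACGTG was found on either strand in 7 of the 15 glycolytic windows and in 11 of the 17 hypoxia windows. In all, 18 of 32 windows (56.3%) held it, beside 19.7% of 27025 windows of the same length. The core GCGTG was in 19 of 32 (59.4%), beside 32.5% of all windows, and 25 of 32 held at least 1 of the 2 cores. The cores differ in their first letter, and ACGTG overlaps its own reverse complement in CACGTG, which Ldha held at 2 places and Bnip3 at 1. No ACGTG was found in the windows of Hk1, Pfkp, Aldoa, Pkm, Adm, Pdk1 and Vegfa, among others. Of these, Hk1, Aldoa, Pkm, Pdk1 and Vegfa had more than 1 RefSeq window, and only the first was searched. ACGTG was in 11 of 18 windows of genes that passed NRG1 against EGF (below) and in 7 of 14 of those that did not. For GCGTG these counts were 9 of 18 and 10 of 14. The genes were listed for known roles in these responses, and the windows were not matched for base content, so the excess says nothing of NRG1. These are matches of letters in 1 window per gene, and binding was not measured.

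NRG1 against EGF, over both experiments, asked how a ligand of ERBB3 and ERBB4 differed from the usual EGFR ligand of the culture. With NRG1, 12 of the 15 glycolytic genes were higher and 0 were lower, beside 6.04% of all tested genes that were higher and 5.39% that were lower. Both groups of genes were chosen with earlier results of these data known, so part of an excess may lie in that choice. All tested genes also include those with a mean down to 1 normalized count. Of the 18 hypoxia genes, 6 were higher (Adm, Bnip3, Egln3, Ddit4, Fam162a and Higd1a), 0 were lower and 12 did not pass. The median log2 fold change was 0.39 for the glycolytic genes and 0.28 for the hypoxia genes, beside -0.01 over all tested genes. In 3 glycolytic genes (Slc2a1, Hk1 and Slc16a3) and 2 hypoxia genes (Adm and Fam162a), all 3 NRG1 libraries lay above all 3 EGF libraries in each experiment, as for 2.8% of all tested genes. Without EGF replicate 1, 2 or 3 or NRG1 replicate 1 of experiment 1, or EGF replicate 1 of experiment 2, the count of hypoxia genes fell from 6 to 2 or 3, while that of glycolytic genes stayed between 10 and 13 without any 1 library. With counts summed per experiment and ligand, 7 glycolytic genes (without Hk2, Gpi1, Tpi1, Pkm and Ldha) and 2 hypoxia genes (Adm and Fam162a) remained higher, beside 340 genes higher and 245 lower over all genes.

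The 15 glycolytic genes together held 1.29% of the UMIs on average in the EGF libraries of experiment 1 (range 1.17 to 1.37%), 1.35% with EREG (1.15 to 1.54%) and 1.72% with NRG1 (1.55 to 1.85%). In experiment 2 the shares were 1.76% with EGF (1.69 to 1.88%), 1.77% with EREG (1.67 to 1.86%) and 1.91% with NRG1 (1.79 to 2.00%). The NRG1 and EGF libraries were apart in experiment 1 and overlapped in experiment 2. For the 18 hypoxia genes the mean share went from 0.248% (EGF) to 0.389% (NRG1) in experiment 1 and from 0.468% to 0.523% in experiment 2, without overlap in either. Ldha, Aldoa and Tpi1 make up most of the first sum, so it says little of the low genes. Fam162a is the most abundant of the hypoxia genes, and in experiment 2 its mean was 2240 normalized counts with EGF and 3469 with NRG1. The median log2 fold change of the 18 hypoxia genes in experiment 2 was 0.04. The rise of their sum in experiment 2 therefore does not show a rise of the group.

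**Figure D1:**
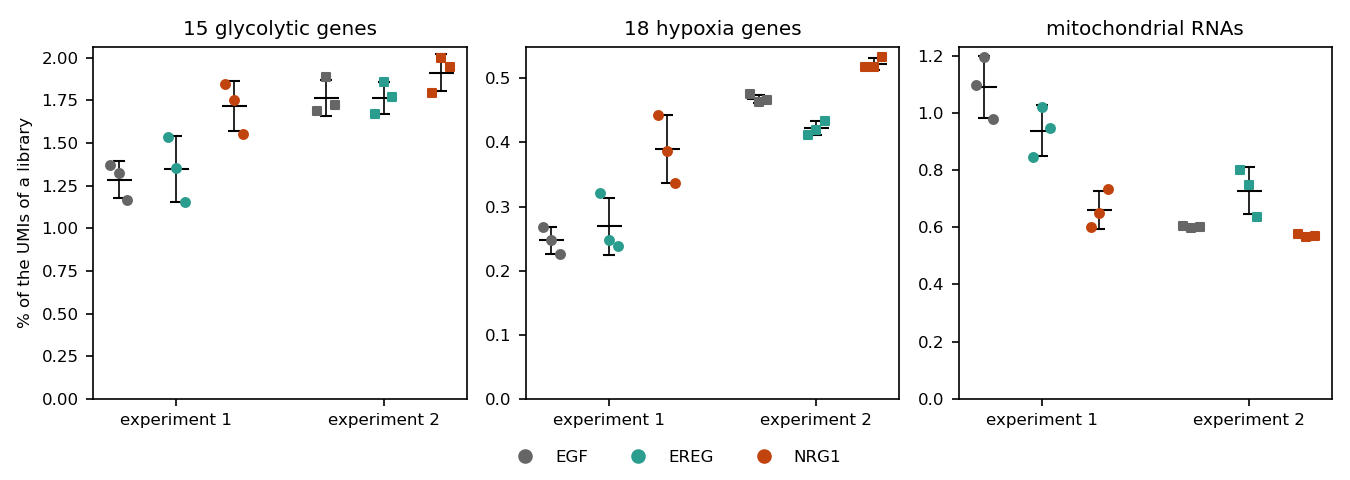
Share of the UMIs of each library held by the 15 glycolytic genes, the 18 hypoxia genes and the mitochondrial RNAs, with 1 point per library, bars for mean ± SD over 3 libraries, and ligands by colour. The hypoxia genes held 0.226 to 0.269% with EGF in experiment 1 and 0.464 to 0.475% in experiment 2, and the NRG1 libraries lay above the EGF libraries of the same experiment. In experiment 2 the abundant Fam162a (mean 2240 normalized counts with EGF, 3469 with NRG1) weighs heavily in this sum.

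Genes of glucose entry and its first phosphorylation were higher with NRG1. Slc2a1 (chr4:119108711-119137983, plus strand, GRCm38) encodes the glucose transporter GLUT1, and it counted 77.3, 47.0 and 54.3 with EGF, 53.8, 49.3 and 59.1 with EREG and 108, 85.1 and 94.0 with NRG1 in experiment 1. In experiment 2, Slc2a1 counted 82.4, 90.8 and 96.4 with EGF, 85.8, 88.6 and 96.3 with EREG and 161, 117 and 149 with NRG1. All NRG1 libraries of an experiment lay above its EGF libraries, and the EREG libraries overlapped with EGF. The difference was 0.67 ± 0.12, adjusted p = 4.71e-05 (1.59-fold), and it was 0.69 ± 0.17 in experiment 1 and 0.66 ± 0.17 in experiment 2.

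Hexokinases trap glucose in the cell by adding a phosphate. Hk1 (chr10:62268855-62379908, minus strand) counted 30.01, 15.96 and 23.4 with EGF, 23.2, 25.1 and 18.4 with EREG and 74.2, 58.1 and 34.0 with NRG1 in experiment 1. In experiment 2, Hk1 counted 91.2, 104 and 68.0 with EGF, 80.8, 91.4 and 82.4 with EREG and 145, 155 and 135 with NRG1. The NRG1 libraries were the highest in both experiments, although 1 of them in experiment 1 was close to the top EGF library. The difference was 0.93 ± 0.15, adjusted p = 3.63e-06 (1.91-fold), the largest among the glycolytic genes that passed. Hk2, the inducible hexokinase, counted 47.3, 27.5 and 28.4 with EGF, 35.9, 19.2 and 46.9 with EREG and 53.5, 49.1 and 35.7 with NRG1 in experiment 1. In experiment 2, Hk2 counted 56.0, 32.4 and 35.2 with EGF, 38.4, 40.5 and 55.6 with EREG and 63.6, 54.0 and 63.2 with NRG1. The Hk2 groups overlapped in both experiments, and its difference of 0.50 ± 0.17, adjusted p = 0.0568 did not pass without EGF replicate 3 or NRG1 replicate 2 of experiment 1, or EGF replicate 2 or 3 or NRG1 replicate 3 of experiment 2 (0.41 to 0.60, adjusted p up to 0.188).

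The middle of the chain rearranges and splits the sugar. Gpi1, the isomerase that turns glucose phosphate into fructose phosphate, counted 874, 777 and 786 with EGF, 905, 797 and 824 with EREG and 1348, 917 and 835 with NRG1 in experiment 1. In experiment 2, Gpi1 counted 1658, 1736 and 1646 with EGF, 1789, 1694 and 1621 with EREG and 2087, 1938 and 2256 with NRG1. In experiment 2 the NRG1 libraries lay apart, and in experiment 1 they overlapped with EGF, and the difference was 0.33 ± 0.07, adjusted p = 0.00153. Of its 3′ windows, 30.6% also occur in transcripts of 31 other genes, which had 21425 UMIs in all, so its count is uncertain.

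Phosphofructokinase commits the sugar to glycolysis and has several isozymes. Pfkp, the platelet type, counted 387, 274 and 271 with EGF, 397, 293 and 268 with EREG and 662, 527 and 498 with NRG1 in experiment 1. In experiment 2, Pfkp counted 660.4, 605 and 712 with EGF, 704, 635 and 644 with EREG and 816, 645 and 821 with NRG1. The groups were apart in experiment 1 only, and the pooled difference was 0.53 ± 0.10, adjusted p = 0.00088. For Pfkl, the liver type, the mean over the 18 libraries was 269.9 normalized counts and the difference was -0.07 ± 0.09, adjusted p = 0.709, which did not pass. Of the 3′ windows of Pfkp, 27.4% also occur in transcripts of its neighbour Pitrm1, which had 817 UMIs.

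Aldoa, the aldolase that splits the sugar, was among the most abundant RNAs of the set and counted 4565, 3889 and 3587 with EGF, 4685, 4313 and 3164 with EREG and 6357, 5650 and 4479 with NRG1 in experiment 1. In experiment 2, Aldoa counted 7483, 9331 and 8077 with EGF, 7279, 9066 and 8126 with EREG and 9048, 10886 and 10633 with NRG1. The highest EGF library exceeded the lowest NRG1 library in both experiments, and the difference was 0.38 ± 0.08, adjusted p = 0.000609. Tpi1, which interconverts the products of aldolase, counted 3305, 3301 and 3326 with EGF, 3678, 3383 and 3396 with EREG and 4754, 4484 and 4072 with NRG1 in experiment 1. In experiment 2, Tpi1 counted 3779, 3857 and 3752 with EGF, 4278, 3910 and 3888 with EREG and 3672, 3955 and 4353 with NRG1. The NRG1 libraries of Tpi1 stood clear in experiment 1 and mixed with the others in experiment 2, with a pooled difference of 0.25 ± 0.07, adjusted p = 0.0123.

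The payoff steps make ATP and NADH. Gapdh counted 26.4, 37.2 and 25.9 with EGF, 38.0, 15.9 and 25.5 with EREG and 52.4, 32.7 and 40.9 with NRG1 in experiment 1. In experiment 2, Gapdh counted 44.0, 33.5 and 37.4 with EGF, 71.7, 48.1 and 57.6 with EREG and 96.0, 71.9 and 81.1 with NRG1. The difference was 0.80 ± 0.17, adjusted p = 0.000621, and the NRG1 libraries were apart from EGF in experiment 2 but overlapped in experiment 1. In 60.9% of the windows of its 3′ end Gapdh matches 1 or more of 140 other genes, and its low count is uncertain for that reason. Pgk1, the first ATP-making enzyme, counted 217, 222 and 215 with EGF, 311, 291 and 178 with EREG and 378, 367 and 281 with NRG1 in experiment 1. In experiment 2, Pgk1 counted 388, 489.8 and 363 with EGF, 378, 517 and 400.0 with EREG and 415, 531 and 424 with NRG1. For Pgk1 the EGF and NRG1 libraries were apart in experiment 1 and overlapped in experiment 2, and the pooled difference was 0.39 ± 0.09, adjusted p = 0.00315.

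Pgam1 and Eno1, the mutase and enolase that follow, did not pass. Pgam1 had from 2 to 18 UMIs in a library and a difference of 0.87 ± 0.40, adjusted p = 0.193. Eno1 had group means from 1072 to 2484 normalized counts, and its difference was 0.19 ± 0.10, adjusted p = 0.317, and 66.0% of its 3′ windows are shared with other genes, Eno1b among them. Pkm, the pyruvate kinase that makes the last ATP, counted 1981, 2052 and 1590 with EGF, 2608, 1946 and 1585 with EREG and 3045, 2665 and 2172 with NRG1 in experiment 1. In experiment 2, Pkm counted 2663, 3052 and 2772 with EGF, 2791, 2879 and 2528 with EREG and 2842, 3614 and 3224 with NRG1. Its NRG1 libraries stood above the EGF libraries in experiment 1 and overlapped them in experiment 2, and the difference was 0.34 ± 0.08, adjusted p = 0.00234. Of its 3′ windows, 12.2% also occur in transcripts of 5 other genes, which had 0 UMIs.

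The fate of pyruvate as lactate was covered by an enzyme and an exporter. Ldha, the lactate dehydrogenase subunit and the most abundant RNA of the 33, counted 7986, 8917 and 7125 with EGF, 9027, 8296 and 6977 with EREG and 10774, 10021 and 9473 with NRG1 in experiment 1. In experiment 2, Ldha counted 8788, 9578 and 8677 with EGF, 8285, 9151 and 8780 with EREG and 8556, 10143 and 9219 with NRG1. The difference was small, 0.19 ± 0.07, adjusted p = 0.0625, with no overlap in experiment 1 and overlap in experiment 2. It did not pass without the replicate term, nor without EGF replicate 1, 2 or 3 or NRG1 replicate 1 or 3 of experiment 1, or EGF replicate 1 of experiment 2 (0.15 to 0.25, adjusted p up to 0.211). Slc16a3, the lactate exporter MCT4, counted 351, 237 and 235 with EGF, 335, 245 and 245 with EREG and 445, 414 and 439.7 with NRG1 in experiment 1. In experiment 2, Slc16a3 counted 314, 270.3 and 309.6 with EGF, 375, 276 and 346 with EREG and 343, 315 and 439 with NRG1. The NRG1 libraries lay above the EGF libraries in both experiments and overlapped with EREG in experiment 2, and the pooled difference was 0.50 ± 0.09, adjusted p = 0.000101.

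**Figure D2:**
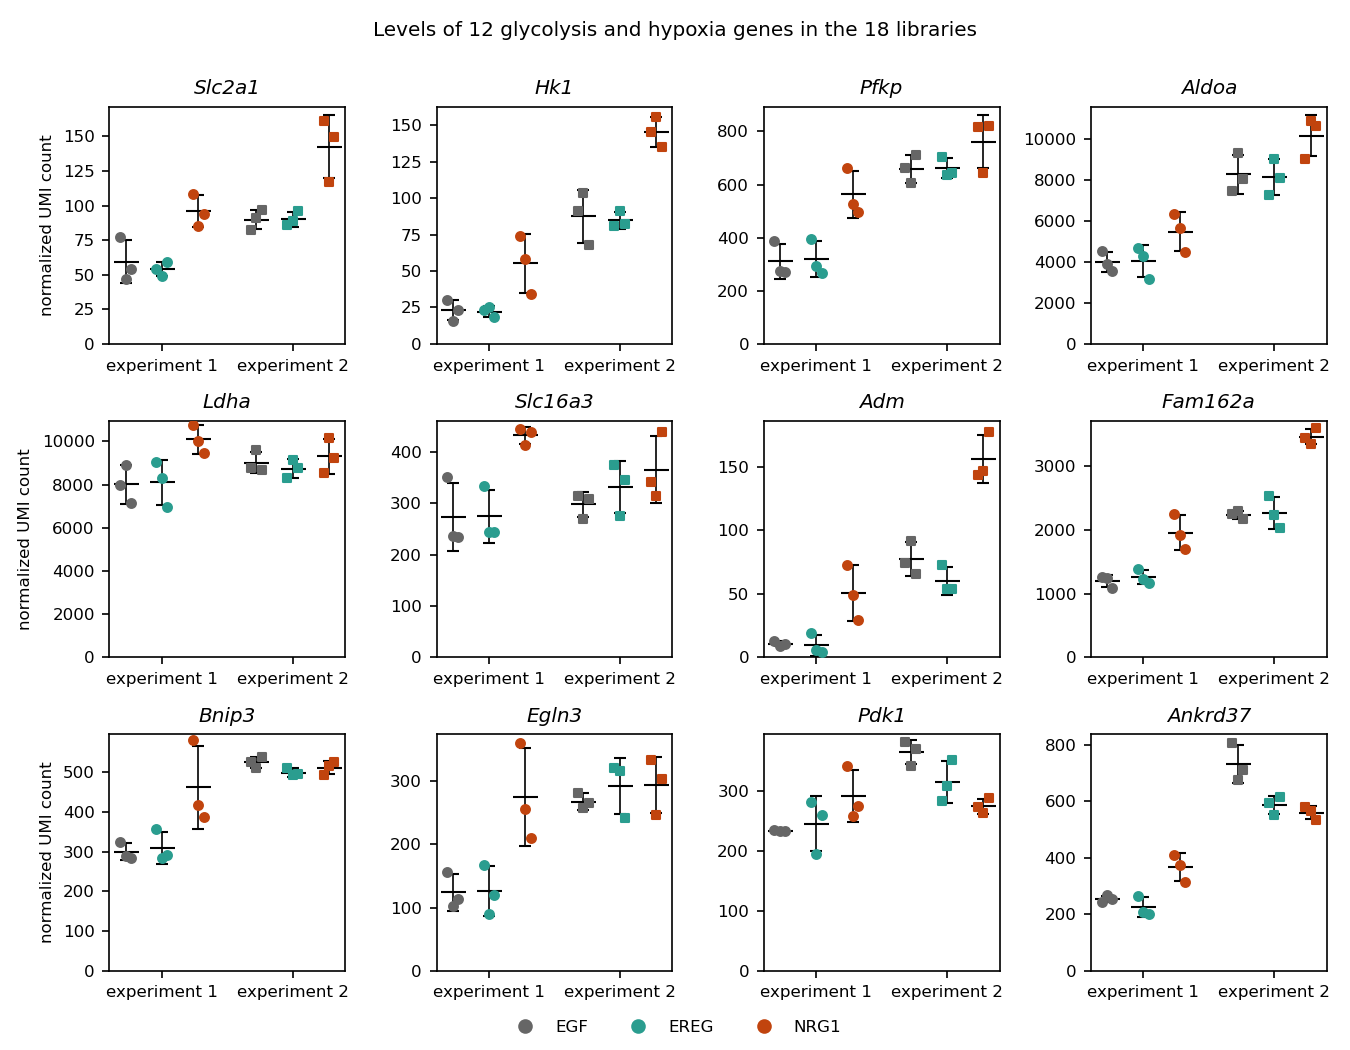
Normalized UMI counts of 6 glycolytic genes (Slc2a1 to Slc16a3) and 6 hypoxia genes (Adm to Ankrd37), with 1 point per library (circles for experiment 1, squares for experiment 2), bars for mean ± SD over 3 libraries, and a linear axis from 0. Slc2a1, Hk1, Adm and Fam162a were higher with NRG1 in both experiments, while Pdk1 and Ankrd37 had their NRG1 libraries above EGF in experiment 1 and below EGF in experiment 2.

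Of the secreted factors among the hypoxia genes, Adm passed and Vegfa did not. Adm (chr7:110627661-110629820, plus strand) encodes adrenomedullin, a peptide that widens vessels and is known as a HIF target, and it counted 12.7, 8.87 and 10.9 with EGF, 18.99, 5.85 and 4.08 with EREG and 73.1, 49.1 and 29.6 with NRG1 in experiment 1. In experiment 2, Adm counted 74.7, 91.9 and 65.8 with EGF, 72.7, 53.7 and 53.6 with EREG and 144, 146 and 178 with NRG1. The NRG1 libraries were apart in both experiments, by 4.51-fold in experiment 1 and 2.04-fold in experiment 2, and the pooled difference was 1.405 ± 0.22, adjusted p = 6.75e-05, the largest of the 33. For Vegfa, the vessel growth factor, the pooled difference was small (0.19 ± 0.17, adjusted p = 0.586). It counted 45.5, 27.5 and 32.6 with EGF, 24.3, 34.2 and 40.8 with EREG and 54.6, 58.1 and 54.0 with NRG1 in experiment 1. In experiment 2, Vegfa counted 62.6, 48.7 and 64.6 with EGF, 39.4, 28.3 and 29.8 with EREG and 35.0, 55.2 and 52.5 with NRG1. In experiment 1 the NRG1 libraries lay above all others, and in experiment 2 the EREG libraries lay below EGF and NRG1 overlapped with both.

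The oxygen sensors among the genes are themselves HIF targets and act as a brake on HIF. Egln3 counted 156, 102 and 114 with EGF, 168, 90.2 and 119 with EREG and 360.1, 256 and 209 with NRG1 in experiment 1. In experiment 2, Egln3 counted 281, 256 and 264 with EGF, 320.1, 315 and 241 with EREG and 332, 245 and 303 with NRG1. The NRG1 libraries were clear of EGF in experiment 1 and mixed in experiment 2, and the pooled difference was 0.65 ± 0.20, adjusted p = 0.0765. Egln3 did not pass without the replicate term or with only the EGF and NRG1 libraries, nor without any of the 6 EGF and NRG1 libraries of experiment 1 or EGF replicate 1 of experiment 2 (0.52 to 0.77, adjusted p up to 0.162). Egln1, the main hydroxylase, with group means from 108 to 172, missed the threshold at 0.28 ± 0.11, adjusted p = 0.103, and it was 0.57 ± 0.14, adjusted p = 0.00409 in experiment 1 alone.

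Genes with products at mitochondria differed from each other. Fam162a (chr16:36043761-36071594, minus strand), known in human cells as a mitochondrial protein that responds to hypoxia, counted 1264, 1248 and 1096 with EGF, 1382, 1228 and 1171 with EREG and 2247, 1926 and 1697 with NRG1 in experiment 1. In experiment 2, Fam162a counted 2250, 2298 and 2172 with EGF, 2532, 2241 and 2040 with EREG and 3450, 3359 and 3596 with NRG1. The NRG1 libraries were apart from EGF and EREG in both experiments, and the difference of 0.67 ± 0.07, adjusted p = 1.49e-11 had the smallest adjusted p of the 33. A part of its 3′ end, 20.6% of windows, is shared with Wdr5b, which had 82 UMIs in all.

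Bnip3 (chr7:138890836-138909519, minus strand), a receptor that marks mitochondria for removal, counted 325, 290.0 and 285 with EGF, 357, 284 and 291 with EREG and 581, 418 and 387 with NRG1 in experiment 1. In experiment 2, Bnip3 counted 526, 509 and 538 with EGF, 511, 492 and 494 with EREG and 493, 515 and 526 with NRG1. The NRG1 libraries of Bnip3 were apart in experiment 1 only, and the pooled difference of 0.29 ± 0.09, adjusted p = 0.0325 did not pass without EGF replicate 1, 2 or 3 or NRG1 replicate 1 of experiment 1 (0.18 to 0.39, adjusted p up to 0.236). The 3′ end of Bnip3 matches other genes in 56.9% of windows, so its count is uncertain, although those genes had 0 UMIs. Higd1a, a small protein of the respiratory chain, counted 197, 168 and 153 with EGF, 141, 213 and 145 with EREG and 193, 218 and 209.8 with NRG1 in experiment 1. In experiment 2, Higd1a counted 188, 226 and 180.3 with EGF, 194, 205 and 193 with EREG and 236, 245 and 251 with NRG1. Its NRG1 libraries were apart from EGF in experiment 2 and overlapped in experiment 1, and its difference of 0.28 ± 0.10, adjusted p = 0.0491 did not pass without EGF replicate 2 or 3 of experiment 1, or EGF replicate 1 or 3 or NRG1 replicate 3 of experiment 2 (0.25 to 0.35, adjusted p up to 0.142). For Higd1a, 10.5% of windows match 2 other genes, which had 0 UMIs.

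Pdk1, a kinase that inhibits pyruvate dehydrogenase in the mitochondria, had no pooled difference that passed (-0.04 ± 0.10, adjusted p = 0.868). It counted 235, 232 and 232 with EGF, 282, 194 and 260.0 with EREG and 340.5, 258 and 274 with NRG1 in experiment 1. In experiment 2, Pdk1 counted 381, 342 and 369.7 with EGF, 283, 308 and 351 with EREG and 272, 262 and 288 with NRG1. All NRG1 libraries were above EGF in experiment 1 and all were below EGF in experiment 2.

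Genes linked to stress and growth were next. Ddit4, an inhibitor of the growth kinase complex mTORC1, counted 133, 76.3 and 119 with EGF, 173, 89.4 and 94.8 with EREG and 249.9, 133 and 185 with NRG1 in experiment 1. In experiment 2, Ddit4 counted 259, 174 and 282 with EGF, 157, 152 and 234 with EREG and 271, 182 and 271 with NRG1. Its groups overlapped in both experiments. The difference of 0.38 ± 0.14, adjusted p = 0.0977 did not pass without the replicate term, nor without any of the 6 EGF and NRG1 libraries or EREG replicate 2 of experiment 1, or EGF replicate 1 or NRG1 replicate 3 of experiment 2 (0.29 to 0.48, adjusted p up to 0.21). Ndrg1, one of the most abundant hypoxia genes, counted 679, 709 and 584 with EGF, 998, 664 and 689 with EREG and 1310, 1145 and 844 with NRG1 in experiment 1. In experiment 2, Ndrg1 counted 1334, 1440.2 and 1419 with EGF, 897, 1119 and 1208 with EREG and 1238, 1583 and 1417 with NRG1. NRG1 was higher in experiment 1 without overlap and overlapped with EGF in experiment 2, and the pooled test gave 0.36 ± 0.16, adjusted p = 0.23.

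Ankrd37 (chr8:45996902-46005707, minus strand), an ankyrin repeat gene known as a HIF target, counted 245, 267 and 254 with EGF, 265, 208 and 202 with EREG and 410.3, 375 and 313 with NRG1 in experiment 1. In experiment 2, Ankrd37 counted 807, 675 and 711 with EGF, 593, 550.5 and 616 with EREG and 579, 566 and 535 with NRG1. Like Pdk1, it had its NRG1 libraries above EGF in the first experiment and below EGF in the second, and the pooled value was 0.06 ± 0.13, adjusted p = 0.86. Car9, a carbonic anhydrase, counted 472, 409 and 331 with EGF, 670.1, 433 and 273 with EREG and 802, 629 and 516 with NRG1 in experiment 1. In experiment 2, Car9 counted 1176, 1210 and 1094 with EGF, 839, 989.7 and 969 with EREG and 1025, 1425 and 1275 with NRG1. Its groups were apart in experiment 1 and overlapped in experiment 2, with 0.38 ± 0.18, adjusted p = 0.246.

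The remaining 6 hypoxia genes did not pass over both experiments. P4ha1 and P4ha2, catalytic subunits of the collagen prolyl hydroxylase, had group means from 46.8 to 157 and from 85.3 to 162 normalized counts, and log2 differences of 0.26 ± 0.13 and 0.25 ± 0.18. P4ha1 was the only hypoxia gene of these 6 that passed in 1 experiment, at 0.54 ± 0.16, adjusted p = 0.025 in experiment 2, where its NRG1 libraries lay above EGF. Pfkfb3 and Pfkfb4, which set the level of the sugar that activates phosphofructokinase, had log2 differences of -0.26 ± 0.13 and 0.68 ± 0.33, the first with group means from 62.1 to 113 and the second with at most 19 UMIs in a library. Mxi1, an antagonist of MYC, had group means from 49.9 to 97.2 and a difference of 0.18 ± 0.14. Kdm3a, a histone demethylase, had group means from 25.0 to 37.6 and a difference of -0.07 ± 0.21.

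**Figure D3:**
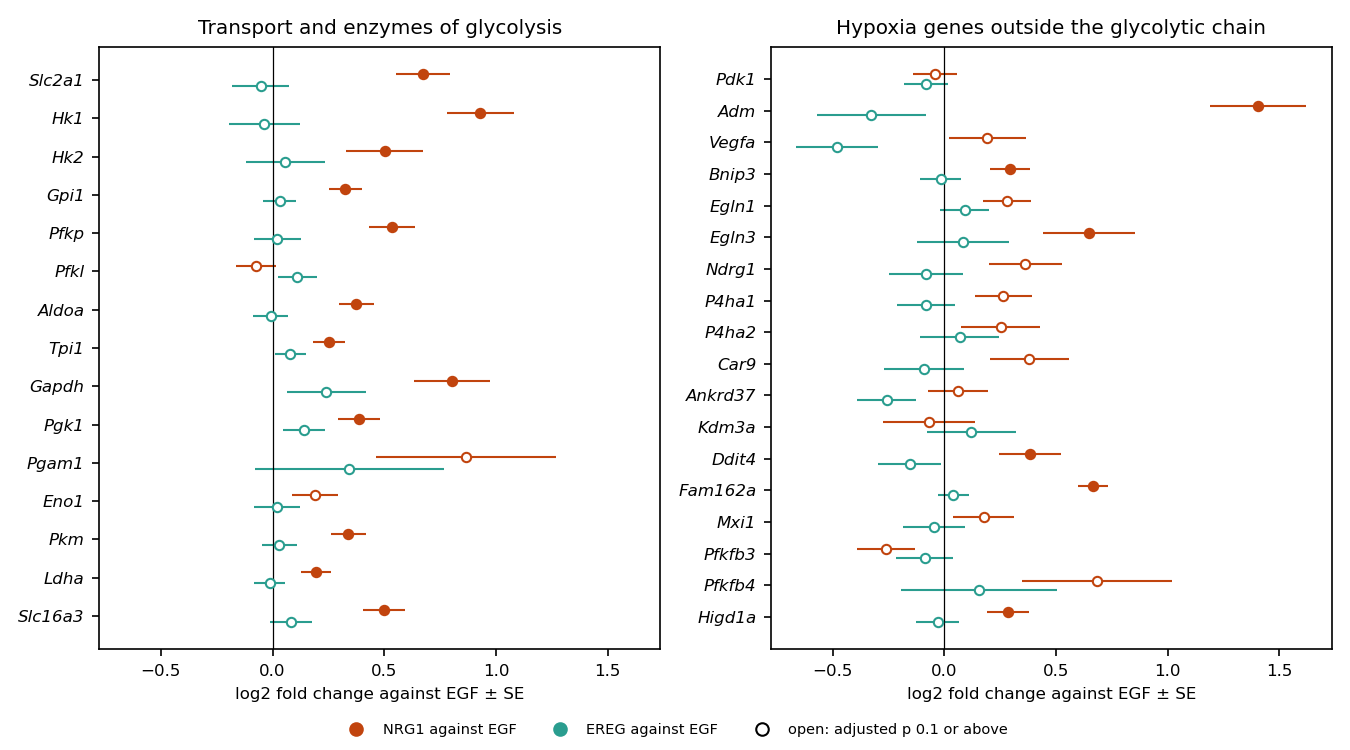
Log2 fold change ± SE of each of the 33 genes for NRG1 against EGF and EREG against EGF over 6 libraries per ligand, with filled points where the adjusted p was under 0.1. With NRG1, 18 points are filled and all lie above 0, from 0.19 for Ldha to 1.405 for Adm, and with EREG no point is filled.

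EREG against EGF asked whether a second ligand of EGFR gave the same levels. By edgeR, 0 of the 33 genes passed, beside 1 gene (0.00822%) of all tested. At an unadjusted p under 0.05 stood 1 of the 33 (Vegfa) and 664 of all genes, and DESeq2, which gave no adjusted p for some low genes, called 0 glycolytic and 0 hypoxia genes and 11 in all. The comparison shares its EGF libraries with NRG1 against EGF. The median log2 fold change was 0.03 for the glycolytic genes and -0.06 for the hypoxia genes, beside 0.00 over all genes, and single values ran from -0.48 ± 0.18 for Vegfa to 0.34 ± 0.42 for Pgam1. For Slc2a1 the difference was -0.05 ± 0.13, for Hk1 -0.04 ± 0.16, for Adm -0.33 ± 0.25 and for Fam162a 0.04 ± 0.07. Within experiment 2, in the fit of both experiments with 6 groups, 1 of the 18 hypoxia genes was lower with EREG, Vegfa at -0.85 ± 0.23, adjusted p = 0.071, beside 0.559% of all genes that were lower. A fit on the libraries of experiment 2 only gave 5 hypoxia genes lower with EREG, beside 145 genes higher and 190 lower among 11950 tested.

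NRG1 against EREG gave 10 glycolytic and 7 hypoxia genes that were higher with NRG1 and 0 lower, beside 6.55% of all genes higher and 4.75% lower. Its medians were 0.38 and 0.33, beside -0.02 over all genes. This comparison shares the NRG1 libraries with the one against EGF, so the 2 are not independent. Adm differed by 1.73 ± 0.22, adjusted p = 5.50e-06, Hk1 by 0.97 ± 0.15, adjusted p = 1.60e-06, Slc2a1 by 0.73 ± 0.12, adjusted p = 1.16e-05 and Fam162a by 0.63 ± 0.07, adjusted p = 9.14e-11. Vegfa passed here (0.67 ± 0.18, adjusted p = 0.00966) as did P4ha1 (0.35 ± 0.13, adjusted p = 0.0822), while Egln3, Hk2 and Tpi1 did not pass. The calls for P4ha1, Pgk1, Ldha and Bnip3 against EREG were each lost without 1 or more single libraries, 8 for P4ha1 (0.27 to 0.42, adjusted p up to 0.275), 11 for Pgk1 (0.17 to 0.32, adjusted p up to 0.312), EREG replicate 2 or 3 or NRG1 replicate 1 of experiment 1 for Ldha (0.16 to 0.27, adjusted p up to 0.165) and NRG1 replicate 1 of experiment 1 for Bnip3 (0.19 to 0.40, adjusted p up to 0.193).

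The experiments were then set side by side, as each rests on 1 mouse. In experiment 1, 10 glycolytic genes (Slc2a1, Hk1, Gpi1, Pfkp, Aldoa, Tpi1, Pgk1, Pkm, Ldha and Slc16a3) and 9 hypoxia genes (Adm, Vegfa, Egln1, Egln3, Fam162a, Bnip3, Ddit4, Ndrg1 and Ankrd37) were higher with NRG1 than with EGF and 0 were lower, beside 4.2% of all genes that were higher. In experiment 2, 4 glycolytic genes (Slc2a1, Hk1, Gpi1 and Gapdh) and 3 hypoxia genes (Adm, Fam162a and P4ha1) were higher, beside 4.15%, and 2 hypoxia genes (Pdk1 and Ankrd37) were lower, beside 2.85%. The medians in experiment 1 were 0.45 for glycolytic and 0.54 for hypoxia genes, and in experiment 2 they were 0.30 and 0.04, beside -0.01 and -0.02 over all genes. In experiment 2, the 4 glycolytic genes became 2 without EGF replicate 1 and 7 without EREG or NRG1 replicate 1, and the 2 lower hypoxia genes became 1 without EGF replicate 2 or NRG1 replicate 1. Fitted on its own libraries, experiment 1 gave 12 hypoxia genes higher, beside 604 of 12233 genes, and experiment 2 gave 7 glycolytic genes higher and 3 hypoxia genes each way, beside 639 genes higher and 454 lower of 11950.

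The difference itself was tested as the interaction of ligand and experiment. Of the 33 genes, 6 had a lower NRG1 response in experiment 2 (1 glycolytic and 5 hypoxia), beside 0.716% of all genes, and 0 had a higher one, beside 0.724%. Egln3 went from 1.14 ± 0.13 in experiment 1 to 0.14 ± 0.13 in experiment 2, a difference of -1.003 ± 0.18, adjusted p = 0.000229. For Ankrd37 the response was 0.51 ± 0.11 and then -0.38 ± 0.10, a difference of -0.89 ± 0.15, adjusted p = 2.48e-05. Pdk1 had 0.31 ± 0.11, which did not pass in experiment 1 on its own (adjusted p = 0.1003), and -0.40 ± 0.12, which did, and the difference was -0.71 ± 0.16, adjusted p = 0.00633.

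In the other 3 genes the estimate was smaller in experiment 2. Bnip3 went from 0.61 ± 0.11 to -0.03 ± 0.10 (difference -0.64 ± 0.15, adjusted p = 0.00771), and Ddit4 from 0.78 ± 0.15 to 0.03 ± 0.14 (-0.75 ± 0.20, adjusted p = 0.0459). Pfkp went from 0.86 ± 0.10 to 0.21 ± 0.10 (-0.65 ± 0.14, adjusted p = 0.00439). Without the replicate term, the differences for Egln3, Ddit4 and Pfkp did not pass, and that for Ddit4 also did not pass without EGF replicate 2 or 3 or NRG1 replicate 1 of experiment 1, or EGF replicate 2 or 3 or NRG1 replicate 1 or 2 of experiment 2 (-0.84 to -0.62, adjusted p up to 0.214). Without NRG1 replicate 3 of experiment 1, 8 hypoxia genes differed in place of 5, and without EREG replicate 1 of experiment 1, 2 glycolytic genes in place of 1. The difference did not pass for Slc2a1 (-0.03 ± 0.24), Gpi1 (-0.01 ± 0.13) and Fam162a (-0.06 ± 0.12), and for Adm it was -1.14 ± 0.36, adjusted p = 0.121. Over all 33 genes, 26 estimates of the difference were below 0, with a median of -0.28 for the glycolytic and -0.60 for the hypoxia genes, beside -0.02 over all genes.

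**Figure D4:**
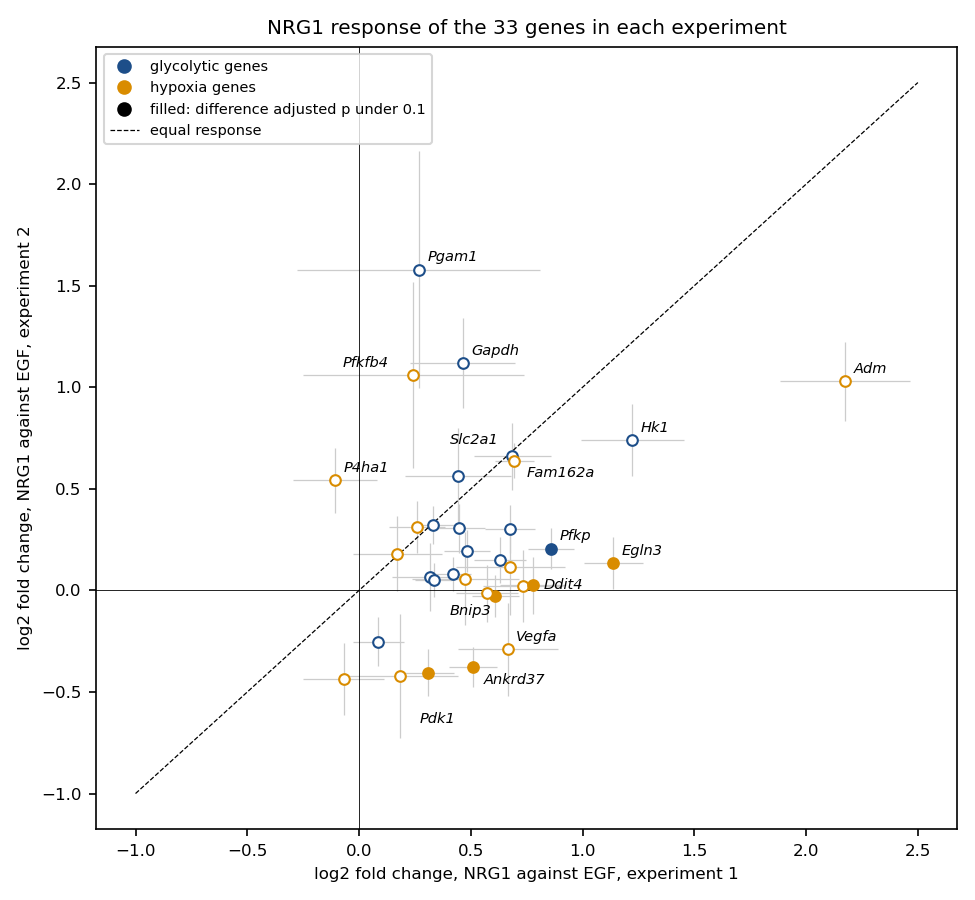
Log2 fold change ± SE of NRG1 against EGF in experiment 1 (x axis) and experiment 2 (y axis) for the 15 glycolytic (blue) and 18 hypoxia (orange) genes, with 3 libraries per ligand and experiment and a dashed line of equal response. The 6 filled genes, whose responses differed between the experiments, all lie below the line, and Pdk1 and Ankrd37 lie below 0 in experiment 2.

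The level from which NRG1 was measured also differed between the experiments. In the EGF libraries, 9 glycolytic and 15 hypoxia genes were higher in experiment 2 than in experiment 1 and 0 were lower, beside 17.1% of all genes higher and 16.4% lower. The median difference was 0.60 for the glycolytic and 0.85 for the hypoxia genes, beside -0.02 over all genes. With EGF, Adm stood at 10.8 ± 1.93 and 77.5 ± 13.3 normalized counts in experiments 1 and 2 (SD, n = 3 each), Hk1 at 23.1 ± 7.03 and 87.7 ± 18.1, and Ankrd37 at 255 ± 11.2 and 731 ± 68.1. Their log2 differences were 2.83 ± 0.28, adjusted p = 2.87e-14, 1.91 ± 0.22, adjusted p = 4.60e-12 and 1.51 ± 0.10, adjusted p = 4.13e-24.

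In experiment 1, Bnip3 stood at 299.8 ± 21.7 (EGF) and 462 ± 104 (NRG1), and in experiment 2 at 524 ± 14.3 and 511 ± 16.8. For 15 of the 18 hypoxia genes and 8 of the 15 glycolytic genes, the mean with NRG1 in experiment 1 was below the mean with EGF in experiment 2. The exceptions among the hypoxia genes were Egln3, Higd1a and Kdm3a. Some of these differences were small, as for Pfkfb4 (7.73 and 8.13) and Vegfa (55.6 and 58.6). The same count was not made over all tested genes, so it does not show a trait particular to either group. Slc16a3 and Ldha were nearly level between the experiments with EGF, at 0.13 ± 0.12 and 0.17 ± 0.08. Each experiment is 1 mouse, so the mouse, its culture and the handling of an experiment cannot be told apart.

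Within experiment 1 the libraries also differed by replicate number. Replicate 1 was the highest of the 3 NRG1 libraries for 14 of 15 glycolytic and 14 of 18 hypoxia genes, and NRG1 replicate 3 was the lowest for 10 and 13. Replicate 1 was also the highest for 9 and 12 genes with EGF and for 11 and 14 with EREG. In experiment 2 no library was the highest for more than 8 genes of a group. Such ranks were not counted over all tested genes, so they do not show a trait particular to these genes. Replicates 1 and 3 were in the same sequencing pool and replicate 2 in another. The model holds 1 term for the replicate number that both experiments share. With a replicate block within each experiment, the difference in response between experiments was lower for 3 glycolytic and 8 hypoxia genes in place of 1 and 5, beside 147 genes higher and 146 lower over all genes.

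Mitochondrial RNAs held 0.979 to 1.195% of UMIs in the EGF libraries of experiment 1 and 0.600 to 0.732% in its NRG1 libraries. For experiment 2 these ranges were 0.596 to 0.604% and 0.565 to 0.578%, so this share moved with the hypoxia genes in experiment 1, against their direction. Counted on libraries without mitochondrial RNAs, the genes higher with NRG1 were again 12 glycolytic and 6 hypoxia genes. The nuclear RNA Malat1 held 0.0280 to 0.0404% (EGF) and 0.0244 to 0.0368% (NRG1) of UMIs in experiment 1, and in experiment 2 0.0774 to 0.0844% and 0.170 to 0.171%, so in experiment 2 it was higher with NRG1 without overlap. The part of either share in the result was not tested.

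Other genes of the same pathways were taken from lists of known members, and all counts in these lists for NRG1 against EGF stand beside 6.04% of all tested genes that were higher and 5.39% that were lower. Of 30 other isozymes and transporters, 23 were tested, with 4 higher with NRG1 and 1 lower: Pgm1 (0.45 ± 0.09), Bsg (0.32 ± 0.08), the chaperone of the lactate exporters, Hkdc1 (0.42 ± 0.12) and Pgm2 (0.36 ± 0.10) were higher, and the glucose transporter Slc2a2 (-0.49 ± 0.14) was lower. In the pentose phosphate pathway, which draws on the same glucose phosphate, 3 of 10 were higher and 0 lower, Pgd at 0.62 ± 0.08, adjusted p = 2.99e-08, G6pdx at 0.66 ± 0.11, adjusted p = 1.72e-05 and Taldo1 at 0.36 ± 0.07. In gluconeogenesis, 1 of 8 was higher (Pck2, 0.61 ± 0.15) and 2 were lower (G6pc, -1.12 ± 0.30, and Fbp2, -0.32 ± 0.07). Of 13 tested genes for pyruvate entry into mitochondria 1 was higher (Pdhb, 0.39 ± 0.10). The medians of these lists lay between -0.03 and 0.16.

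Of 14 genes of oxygen sensing and HIF, 2 were higher with NRG1 and 0 lower, beside the same 6.04% and 5.39%. In experiment 1 the alpha subunit Hif1a itself counted 47.1 ± 1.72 (EGF), 53.3 ± 9.85 (EREG) and 80.3 ± 8.46 (NRG1; SD, n = 3), and in experiment 2 64.2 ± 13.8, 79.1 ± 11.9 and 101 ± 10.7. Its difference was 0.71 ± 0.13, adjusted p = 7.59e-05, with estimates per experiment of 0.76 ± 0.19 and 0.66 ± 0.19. Elob, a partner of VHL, was the other (0.21 ± 0.07, with 33% of its windows shared with 5 other genes, which had 0 UMIs), while Epas1 (0.59 ± 0.33) and Vhl (-0.42 ± 0.22) did not pass. HIF is set largely at the level of protein, which these data do not measure.

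Of 36 further genes known as HIF targets, 28 were tested, and 9 were higher with NRG1 and 1 was lower, beside 6.04% and 5.39% of all genes, with a median of 0.24. Ero1l, an oxidase of the endoplasmic reticulum, had 471 ± 42.8 (EGF) and 1479 ± 664 (NRG1) in experiment 1 and 1640 ± 68.3 and 2914 ± 124 in experiment 2, a difference of 1.23 ± 0.20, adjusted p = 0.00135. Bhlhe40, a repressor of transcription, differed by 0.59 ± 0.12, Hilpda, a lipid droplet protein, by 0.65 ± 0.16, and Stc2 by 0.49 ± 0.11. The lower one was Tfrc, the transferrin receptor, at -0.44 ± 0.13.

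Cell type markers moved in the same comparison. Of 10 Paneth cell markers, 9 were lower with NRG1, beside 5.39% of all genes lower and 6.04% higher, with a median of -0.52, and their summed share of UMIs in experiment 1 was 4.12 to 4.53% (EGF) against 2.80 to 3.48% (NRG1), and in experiment 2 it was 3.75 to 4.40% against 2.54 to 2.72%. Of 8 crypt stem cell markers 4 were lower and 0 higher, of 8 goblet markers 4 were lower, and of 8 enteroendocrine markers 2 were lower. Of 12 enterocyte markers 4 were higher and 2 lower, and of 10 markers of dividing cells 1 was higher. Of the fibroblast, endothelial and immune markers, 4 were tested and 1 was higher (Cd14, 0.93 ± 0.32). The part that such shifts have in the 33 genes was not tested.

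Between the experiments the stem cell markers differed as well: with EGF, 7 of 8 were lower in experiment 2, beside 16.4% of all genes lower and 17.1% higher, with a summed share of 0.233 to 0.254% in experiment 1 and 0.0644 to 0.0700% in experiment 2. Goblet and enteroendocrine markers were higher in experiment 2 for 6 of 8 and 7 of 8. These shares moved with the level of the hypoxia genes in the EGF libraries, and their part in it was not tested.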

How the data were processed

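The deposited values are raw UMI counts, 1 column for each library and no pooling of replicates, which the authors obtained with BRB-seqTools after alignment by STAR 2.7.8a (GRCm38). A sheet names the ligand, experiment, replicate and sequencing pool behind each column. DESeq2 and MultiQC also stand in the submitters' processing notes. The labels and the methods do not state which annotation release was counted. Symbols and coordinates came from GENCODE M21 by gene identifier (31011 of 31053 genes matched), and the row of a reporter, with 6 counts or 2.05e-05% of the total, was dropped. A second identifier named Aldoa had 1 UMI and was not used.

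Genes were kept from 5 counts in all and from a mean of 1 normalized count, and were tested with edgeR 4.0.16 (quasi-likelihood, robust, TMM; R 4.3.3, limma 3.58.1) in 1 fit with ligand, experiment and replicate number (12 residual degrees of freedom), as in the study's design. Values within an experiment and the interaction came from a fit with 6 groups (10 residual degrees of freedom). P-values were adjusted by the Benjamini-Hochberg method over 12159 genes. Each SE was derived from edgeR's F statistic, as the size of the log2 fold change over the root of F. On simulated counts of 12054 genes, edgeR recovered 24 of 33 genes raised by 0.5 (log2) for NRG1 against EGF. It recovered 32 of 33 raised by 1 and 33 of 33 raised by 2, and called 16 of 11854 unchanged ones. Of genes lowered by 0.5, 1 and 2 it recovered 20 of 33, 26 of 34 and 34 of 34. The simulation gave all genes the same dispersion, changed only genes with a mean of at least 10, and held no effect of experiment or replicate. It therefore does not give the power reached in these data. Alternatives were DESeq2 1.42.0 and its size factors in edgeR, no filter, other replicate terms, leaving out each library, fewer libraries, summed counts, other library sizes and a threshold of 0.05. Windows of 61 nucleotides in the last 500 of each gene's transcripts were searched in transcripts of other genes, and a share above 10% is given. The methods do not state how reads that match several genes were counted. A matching gene with 0 UMIs therefore does not show that no reads were lost.

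The genes and lists were chosen with earlier results of these data known. Values per library are given for genes that passed for NRG1 against EGF and for the 3 most abundant of each group, and, chosen after their values were seen, for Vegfa, Pdk1 and Ankrd37. From other lists, the genes that passed are named, at most 4 each in order of adjusted p, and Pgm2, Epas1, Vhl and Tfrc were added after their values were seen.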

Additional observations from a re-analysis of the deposited data

Results flagged for a closer look

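In 6 of the 33 genes the response to NRG1 against EGF differed between the 2 experiments by a test of the difference itself. The difference (experiment 2 minus experiment 1, log2) was -1.003 for Egln3, -0.89 for Ankrd37, -0.75 for Ddit4, -0.71 for Pdk1, -0.65 for Pfkp and -0.64 for Bnip3 (3 libraries per ligand and experiment, 1 mouse per experiment). Those for Egln3, Ddit4 and Pfkp did not pass without the replicate term, and that for Ddit4 did not pass when any 1 of 7 libraries was left out (-0.84 to -0.62, adjusted p up to 0.214).

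Of 99 groups of 6 libraries (33 genes with each of 3 ligands, both experiments together), 4 had 1 library far from the others by Dixon's criterion. Its rate of about 1 in 20 by chance holds for 6 values from 1 normal population. These groups mix both experiments, whose levels differ, so the 4 cannot be set against that rate. With NRG1, the highest library had 23.4 normalized counts of Pgam1, 340.5 of Pdk1 and 57.5 of Kdm3a, and the lowest had 35.0 of Vegfa.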

How the results depend on the processing

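Of the 18 genes higher with NRG1 than with EGF, 12 passed without any 1 library, and Hk1, Slc16a3, Adm and Fam162a also passed in each of the 13 other settings tried. Over all 33 genes and settings, single-gene values for NRG1 against EGF kept their side of the threshold in 907 cases, no longer passed in 80 and newly passed in 32. In 17 of the 907 the sign turned with neither value past the threshold, in 7 genes (Ankrd37, Egln1, Kdm3a, P4ha1, Pdk1, Pfkl and Vegfa). Values that passed in at least 1 of the settings compared reversed in 3 cases, which were Pdk1 in experiment 1 alone (0.31), and in experiment 2 alone Bnip3 (-0.038) and Ankrd37 (-0.38). The causes of these changes were not tested, except that some settings use fewer libraries by construction.

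Over all genes, NRG1 against EGF gave 1390 calls, 585 with counts summed per experiment and ligand, and 594 and 273 in sequencing pools S3 and S4 alone. The pool settings were chosen after seeing the data. For NRG1 against EREG the 1374 calls became 524, 536 and 330. EREG against EGF had 1 call and 0 in these 3 settings, 11 by DESeq2, 26 with no filter, 25 with only the compared ligands, 2 in experiment 1 and 335 in experiment 2 when each was fitted on its own libraries, which is what alone means in this section.

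Among the glycolytic genes, the 12 higher with NRG1 than with EGF became 7 with summed counts, 7 in experiment 2 alone and 3 in pool S4, and the 10 higher than with EREG became 5, 6 and 4, and 6 in pool S3, with 1 lower in experiment 2 alone in place of 0. The 6 hypoxia genes higher with NRG1 than with EGF became 2 with summed counts, 12 in experiment 1 alone, 3 in experiment 2 alone and 3 in each pool. In experiment 2 alone 3 were lower with NRG1 and 5 with EREG, in place of 0.

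The replicate numbers pair the samples only in part. Deviations of replicate 2 libraries correlated at 0.107 to 0.171 in every pair, while those of replicates 1 and 3 did not all exceed 0.1, and replicate 2 has its own sequencing pool. Without the replicate block, the difference between experiments gave 90 calls in place of 175 (115 at a threshold of 0.05), with 0 glycolytic genes lower in place of 1 and 3 hypoxia genes in place of 5. With the replicate block set within each experiment it gave 293 calls, 3 and 8, and EREG against EGF gave 16 calls.

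Leaving out 1 library at a time, calls ranged from 1077 to 1548 for NRG1 against EGF, 0 to 43 for EREG against EGF, 1094 to 1530 for NRG1 against EREG and 96 to 241 for the difference between experiments. Hypoxia genes higher with NRG1 than with EGF ranged from 2 to 7, and glycolytic genes lower with NRG1 than with EREG from 0 to 1. The difference was lower for 1 to 2 glycolytic and 4 to 8 hypoxia genes. In experiment 2, 2 to 7 glycolytic genes were higher and 0 to 1 lower, and 1 to 2 hypoxia genes were lower with NRG1. Depth limits Pgam1 and Pfkfb4, which had under 20 UMIs in each library.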
